A study of Homo sapiens with 6 samples.

Results

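Metalloproteases that cut the extracellular matrix or shed membrane proteins, together with their protein inhibitors, were followed in cells in which EIF4G2 was silenced. The genes were the protein-coding rows of the deposited gene table whose symbol is MMP, ADAM or ADAMTS and a number, or TIMP and a digit. This took 65 genes of 50229 distinct symbols in 60612 rows: 22 MMP, 20 ADAM, 19 ADAMTS and 4 TIMP genes. ADAM5 and ADAM6 fit the pattern but carry no protein-coding transcript type and were left out.

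Matrix metalloproteinases (MMPs) are secreted or membrane-bound zinc enzymes made with an inhibitory prodomain, and most cut collagens, gelatins or other matrix proteins. ADAMs are membrane-anchored proteins, many of which release the outer part of cell-surface proteins, while some have lost the catalytic motif and act in adhesion. ADAMTS enzymes are secreted and act on proteoglycans, procollagens, fibrillin microfibrils and other matrix proteins. TIMPs bind the active site of these enzymes and block it. In liver, these enzymes and inhibitors are known for matrix turnover in fibrosis and in tumour spread.

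All 6 libraries carry the label Hep3B, the name of an established line from a human liver carcinoma, although the protocol text of the labels speaks of an adipose type. In 3 of them, called siEIF4G2, a silencing RNA directed at EIF4G2 had been transfected at 50 nM, and in the other 3, called siNC, a control siRNA at the same dose of 50 nM. EIF4G2 encodes a translation initiation factor related to EIF4G1. Poly(A) RNA was sequenced as paired ends, and the deposited counts summed to between 63351653 and 72863628 per library. Separate cultures are not named, so the p-values below measure a spread among libraries that may be only technical.

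EIF4G2 itself was at 17.9, 17.6 and 20.05 FPKM in siEIF4G2 replicates 1, 2 and 3, against 107, 89.4 and 97.8 FPKM in siNC replicates 1, 2 and 3. FPKM is the deposited level, scaled for transcript length and sequencing depth, and every level below is on that scale. Fold changes come from edgeR's quasi-likelihood test on the deposited counts, siEIF4G2 over siNC, with p-values adjusted over all tested genes. On that test EIF4G2 was 5.41-fold lower (log2 fold change -2.43, SE 0.088; edgeR adjusted p = 0.000207), while an exact two-sided permutation test of EIF4G2 alone gave 0.1, the smallest p that 3 against 3 libraries allow.

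The labelled cell type did not show in its defining genes. Of 9 hepatocyte markers, 7, including ALB (albumin), AFP (alpha-fetoprotein) and APOB, were at a count of 0 throughout, and the sum of all 9 lay between 0.0009 and 0.03 FPKM in siEIF4G2 and between 0.0009 and 0.0311 FPKM in siNC. Of 8 fibroblast markers none was at 0 in all libraries, and their sum was 99.5 to 101 FPKM in siEIF4G2 against 77.1 to 85.4 FPKM in siNC, carried by COL3A1 and LUM. All 5 tested fibroblast markers passed the test, COL3A1, LUM and DCN higher in siEIF4G2, and COL1A1 and PDGFRB lower, with COL1A2, PDGFRA and THY1 averaging under 0.1 FPKM in both groups. Of 5 epithelial markers, KRT8 and KRT18 carried a sum of 339 to 367 FPKM in siEIF4G2 against 382 to 389 FPKM in siNC. The other 3, EPCAM, KRT19 and CDH1, averaged under 1 FPKM. Of the 2 tested epithelial markers, KRT18 passed, lower in siEIF4G2, and 1 did not pass. Of 6 macrophage and leukocyte markers PTPRC and AIF1 were at 0 and the sum was 8.3 to 10.4 FPKM in siEIF4G2 against 13.3 to 15.6 FPKM in siNC, most of it CD68. The 5 endothelial markers summed to 0.44 to 0.55 FPKM in siEIF4G2 against 1.35 to 1.42 FPKM in siNC, most of it CDH5. The part of these markers in the results below was not tested. In bulk RNA, fewer cells of a type and less RNA per cell cannot be told apart.

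Low levels were common among the 65 genes, as in the whole table. A count of 0 in all 6 libraries was found for 12 genes, and 35 genes, these included, had a mean under 0.1 FPKM. A gene entered the test when 3 or more libraries reached 0.5 FPKM, and 22 did: 5 of 22 MMP, 7 of 20 ADAM, 6 of 19 ADAMTS and all 4 TIMP genes. Of all 50229 distinct symbols, 27064 had a count in at least 1 library and 13748 entered the test. Of the 22, 12 passed an edgeR adjusted p of 0.05, 3 of them higher in siEIF4G2 and 9 lower. Over all 13748 tested genes, 33.4% passed, 15.9% higher and 17.6% lower. The median log2 fold change was -0.35 over the 22 genes and 0.01 over all tested genes. At least 2-fold was reached by 1 of the 22, MMP12, against 3.55% of all tested genes. The groups did not overlap in FPKM for 15 of the 22 genes, with siEIF4G2 below siNC for 12 and above it for 3. Over all tested genes the shares were 50.6%, with 25.6% below and 25% above. Those shares were taken on CPM, counts scaled by the library total and its TMM normalization factor, and not on FPKM.

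**Figure D1:**
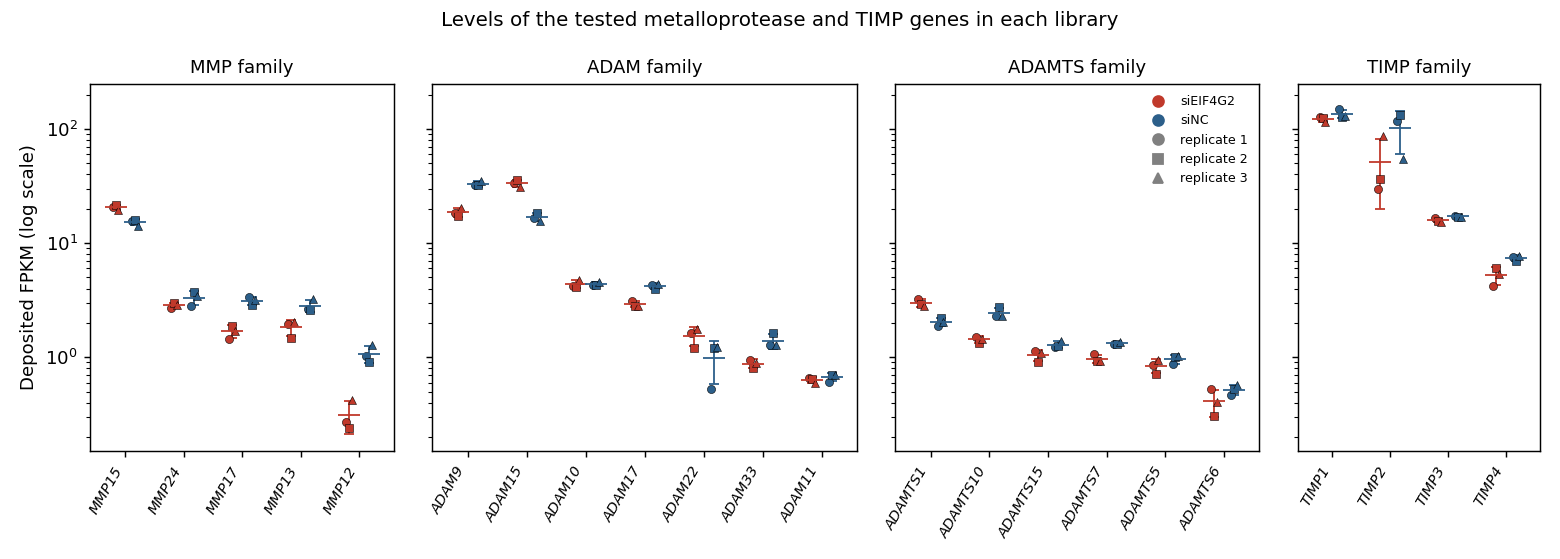
Deposited FPKM (log axis) of the 22 tested genes by family, siEIF4G2 left of siNC for each gene; points are libraries, shaped by replicate number, and bars are mean ± SD (n = 3). TIMP1 lies above 100 FPKM in every library, ADAM15 and ADAM9 trade places between the groups, and TIMP2 spreads widely within both groups.

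**Figure D2:**
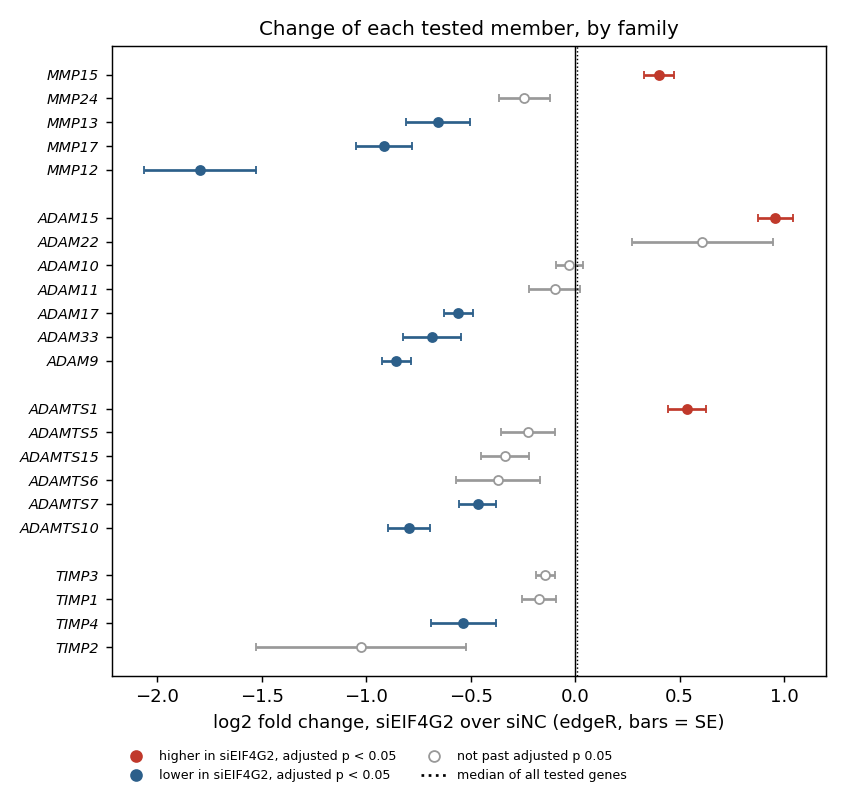
log2 fold change of each tested gene, siEIF4G2 over siNC, with edgeR standard errors as bars, grouped by family; filled points passed an adjusted p of 0.05 and the dotted line is the median of all tested genes. ADAM15, ADAMTS1 and MMP15 are the 3 filled points right of 0, and 9 filled points lie left of it.

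Among the membrane-anchored sheddases, ADAM15 rose and ADAM9 and ADAM17 fell, while ADAM10 did not pass. ADAM15, a metalloprotease-disintegrin with an integrin-binding motif (ENSG00000143537, chromosome 1, 155050566 to 155062775), was at 33.6, 35.8 and 31.2 FPKM in siEIF4G2 replicates 1, 2 and 3, against 16.7, 18.4 and 15.7 FPKM in siNC replicates 1, 2 and 3. Every siEIF4G2 library lay above every siNC library, and ADAM15 was 1.94-fold higher (log2 fold change 0.96, SE 0.085; edgeR adjusted p = 0.000844). ADAM9, a sheddase of several membrane proteins (ENSG00000168615, chromosome 8, 38996869 to 39105261), was at 18.3, 17.3 and 20.5 FPKM in siEIF4G2 and at 32.1, 32.2 and 35.3 FPKM in siNC. The order was the opposite, with no overlap, and ADAM9 was 1.81-fold lower (log2 fold change -0.86, SE 0.071; edgeR adjusted p = 0.000696). ADAM15 was the ADAM gene with the highest mean level in siEIF4G2, and ADAM9 in siNC. The interval of ADAM15 touches that of DCST1 on the same strand, which averaged 0.333 FPKM in siEIF4G2 and 0.219 FPKM in siNC. The ratio of ADAM15 to ADAM9 FPKM was 1.84, 2.07 and 1.52 in siEIF4G2 replicates 1, 2 and 3, against 0.521, 0.572 and 0.445 in siNC replicates 1, 2 and 3. The sum over all 20 ADAM genes was nearly flat, at 63.1 to 63.2 FPKM in siEIF4G2 and 60.9 to 64.3 FPKM in siNC, and ADAM15 made 49.3% to 56.5% of it in siEIF4G2 against 24.4% to 29.2% in siNC.

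ADAM17, the enzyme that releases TNF and ligands of the EGF receptor (ENSG00000151694, chromosome 2, 9488486 to 9556732), was at 3.14, 2.83 and 2.81 FPKM in siEIF4G2 and at 4.31, 3.96 and 4.42 FPKM in siNC. The groups did not overlap, and ADAM17 was 1.47-fold lower (log2 fold change -0.56, SE 0.07; edgeR adjusted p = 0.00253). Its interval overlaps IAH1 on the opposite strand, and IAH1 averaged 3.54 FPKM in siEIF4G2 and 3.55 FPKM in siNC (edgeR adjusted p = 0.899). Whether strand was used in counting is not known, so reads of overlapping genes cannot be told apart. ADAM10, which cuts Notch receptors, cadherins and many other membrane proteins, was at 4.24, 4.13 and 4.77 FPKM in siEIF4G2 and at 4.29, 4.27 and 4.59 FPKM in siNC. Its groups overlapped and it did not pass (log2 fold change -0.03, SE 0.065; edgeR adjusted p = 0.772).

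**Figure D3:**
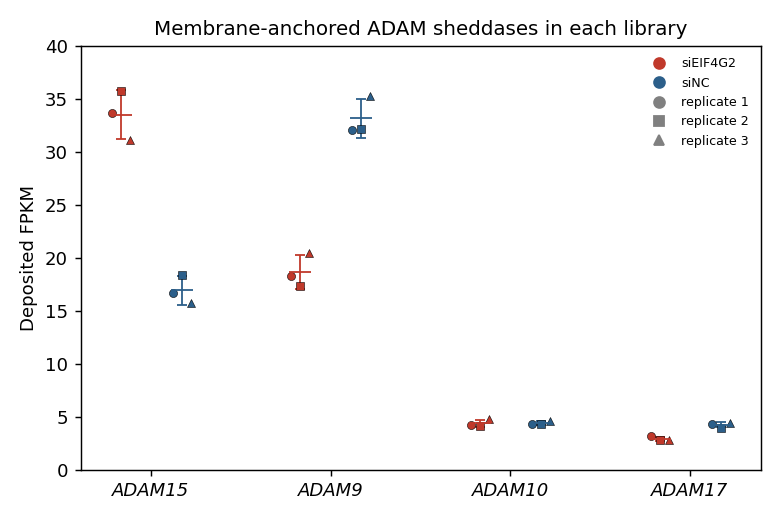
Deposited FPKM of ADAM15, ADAM9, ADAM10 and ADAM17 in each library, siEIF4G2 left of siNC; points are libraries and bars mean ± SD (n = 3). ADAM15 lies between 31.2 and 35.8 FPKM in siEIF4G2 and ADAM9 between 32.1 and 35.3 FPKM in siNC, each near the level of the other in the opposite group.

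The other tested ADAM genes were near 1 FPKM. ADAM33, a catalytically active ADAM first known from asthma genetics (ENSG00000149451, chromosome 20, 3667965 to 3682131), was at 0.95, 0.8 and 0.891 FPKM in siEIF4G2 and at 1.27, 1.65 and 1.27 FPKM in siNC, without overlap. It was 1.61-fold lower (log2 fold change -0.69, SE 0.14; edgeR adjusted p = 0.0128). ADAM22 and ADAM11, which lack the catalytic motif and act as adhesion or receptor proteins in the nervous system, did not pass. ADAM22 was at 1.63, 1.22 and 1.77 FPKM in siEIF4G2 and at 0.522, 1.21 and 1.23 FPKM in siNC, where replicate 1 alone was low (log2 fold change 0.61, SE 0.34; edgeR adjusted p = 0.213). ADAM11 averaged 0.634 ± 0.038 FPKM in siEIF4G2 and 0.667 ± 0.053 FPKM in siNC (SD, n = 3 each; edgeR adjusted p = 0.576).

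Of the 5 tested MMP genes, 1 rose, 3 fell and 1 did not pass, where 15.9% of all tested genes rose and 17.6% fell. MMP15, a membrane-type MMP with a transmembrane anchor (ENSG00000102996, chromosome 16, 58025754 to 58046901), had the highest level of the family in every library. It was at 20.7, 21.5 and 19.5 FPKM in siEIF4G2, against 15.7, 15.97 and 14.2 FPKM in siNC. No siNC library reached a siEIF4G2 library, and MMP15 was 1.32-fold higher (log2 fold change 0.40, SE 0.071; edgeR adjusted p = 0.00778). MMP15 made 71.2% to 73.8% of the summed MMP FPKM in siEIF4G2 and 53.4% to 58.8% in siNC, and that sum was 27.4 to 29.1 FPKM in siEIF4G2 and 26.5 to 27.8 FPKM in siNC.

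Of the other membrane-type enzymes, MMP17 and MMP24 entered the test. MMP17, which is held by a glycosylphosphatidylinositol anchor (ENSG00000198598, chromosome 12, 131828393 to 131851783), was at 1.46, 1.9 and 1.71 FPKM in siEIF4G2 and at 3.37, 2.88 and 3.17 FPKM in siNC. It was 1.88-fold lower with no overlap (log2 fold change -0.91, SE 0.13; edgeR adjusted p = 0.00422). MMP24, a membrane-type MMP best known in neurons, averaged 2.85 ± 0.153 FPKM in siEIF4G2 and 3.32 ± 0.458 FPKM in siNC (SD, n = 3 each; edgeR adjusted p = 0.174), and its interval overlaps MMP24OS, which averaged 4.16 FPKM in siEIF4G2 and 4.48 FPKM in siNC. MMP14, the membrane-type enzyme that activates MMP2, was at 0.0553, 0.0524 and 0.0556 FPKM in siEIF4G2 and at 0.0138, 0.0226 and 0.0441 FPKM in siNC, very low levels at which every siEIF4G2 library lay above siNC (log2 fold change 0.90 with no filter on low values; edgeR adjusted p = 0.352). MMP2 itself, a gelatinase, was at 0.186, 0.268 and 0.185 FPKM in siEIF4G2 and at 0.186, 0.188 and 0.106 FPKM in siNC. Neither MMP14 nor MMP2 passed the filter on low values. The other gelatinase, MMP9, had a count above 0 in 1 library of each group.

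The secreted enzymes that could be tested were MMP12 and MMP13, and both fell. MMP12, macrophage elastase (ENSG00000262406, chromosome 11, 102862736 to 102874982), was at 0.271, 0.239 and 0.425 FPKM in siEIF4G2, against 1.02, 0.915 and 1.27 FPKM in siNC. It was 3.47-fold lower (log2 fold change -1.79, SE 0.27; edgeR adjusted p = 0.00439), the largest change of the 22 genes. MMP12 reached 0.5 FPKM only in siNC libraries, so its entry into the test depended on the group in which it was high. With a filter on the mean over all 6 libraries it entered too and passed, but that filter depends on siNC as well. Its mean of 0.691 FPKM comes from 1.07 FPKM in siNC and 0.312 FPKM in siEIF4G2. A filter of 1 FPKM in 3 libraries removed it from the test. With no filter on low values it was 3.45-fold lower (edgeR adjusted p = 0.0079). MMP13, a collagenase (ENSG00000137745, chromosome 11, 102942995 to 102955732), was at 1.96, 1.48 and 2.04 FPKM in siEIF4G2 and at 2.64, 2.62 and 3.21 FPKM in siNC. It was 1.57-fold lower with no overlap (log2 fold change -0.65, SE 0.15; edgeR adjusted p = 0.0213), but without siNC replicate 3 its edgeR adjusted p was 0.0643.

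MMP12 and MMP13 are neighbours in the MMP gene cluster of chromosome 11, 68012 bases apart. The cluster holds 9 of the 22 MMP genes between 102520508 and 102955732, a span of 435 kb, and all 9 lie on the minus strand. MMP12 and MMP13 sit at its high-coordinate end and were the 2 of the 9 that entered the test. MMP20, MMP27 and MMP8 had a count of 0 in all libraries. MMP7, a matrilysin, averaged 0.0869 FPKM in siEIF4G2 and 0.105 FPKM in siNC. MMP1, an interstitial collagenase, averaged 0.0434 FPKM in siEIF4G2 and 0.0455 FPKM in siNC. MMP3 and MMP10, stromelysins, had counts in siNC libraries only, of at most 8. Where nothing was counted, a true value of up to 3 counts is still possible. This is 0.0403 to 0.0466 CPM (counts scaled by the library total and its TMM factor) and covers counting error only.

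Promoter sequence is shown for genes that moved in opposite directions, ADAM15 and MMP15, which rose, and ADAM17 and TIMP4, which fell. TIMP4 passed in only 9 of the 16 alternative fits. ADAMTS10 and ADAMTS7, which also fell and have a window, are not printed. The windows are the 250 bases before the RefSeq start in GRCh38.p14, read 5′ to 3′ on the gene's strand: chr1:155051066-155051315 (plus) for ADAM15, chr16:58025504-58025753 (plus) for MMP15, chr2:9555831-9556080 (minus) for ADAM17 and chr3:12158913-12159162 (minus) for TIMP4. Capitals mark GGGCGG, the core recognised by SP1, and AGGAAG, a PEA3 site of ETS factors, on either strand. The RefSeq start lies 750 bases downstream of the deposited gene start for ADAM15 and 902 bases downstream for ADAM17.
ADAM15: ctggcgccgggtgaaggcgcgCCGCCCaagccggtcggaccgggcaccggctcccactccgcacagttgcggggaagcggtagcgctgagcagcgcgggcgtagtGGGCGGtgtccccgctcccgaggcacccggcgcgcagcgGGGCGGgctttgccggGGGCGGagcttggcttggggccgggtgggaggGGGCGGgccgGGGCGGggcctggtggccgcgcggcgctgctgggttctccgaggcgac
MMP15: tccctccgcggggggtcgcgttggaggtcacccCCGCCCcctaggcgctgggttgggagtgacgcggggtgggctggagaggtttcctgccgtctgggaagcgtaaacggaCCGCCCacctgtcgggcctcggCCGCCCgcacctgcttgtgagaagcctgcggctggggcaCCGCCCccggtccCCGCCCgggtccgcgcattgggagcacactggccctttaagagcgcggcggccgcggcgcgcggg
ADAM17: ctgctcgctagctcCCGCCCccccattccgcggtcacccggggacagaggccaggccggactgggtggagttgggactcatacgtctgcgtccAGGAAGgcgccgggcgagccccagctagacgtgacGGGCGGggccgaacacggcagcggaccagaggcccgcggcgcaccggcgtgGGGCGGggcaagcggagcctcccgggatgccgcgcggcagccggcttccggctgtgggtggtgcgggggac
TIMP4: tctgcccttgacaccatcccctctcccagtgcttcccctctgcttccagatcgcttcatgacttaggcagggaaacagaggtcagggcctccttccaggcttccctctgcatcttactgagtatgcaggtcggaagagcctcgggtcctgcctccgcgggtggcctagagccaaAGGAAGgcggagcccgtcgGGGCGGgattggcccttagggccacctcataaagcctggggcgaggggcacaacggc

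The window of ADAM15 holds 6 matches to GGGCGG and that of MMP15 holds 5, with none to AGGAAG. The window of ADAM17 holds 3 and that of TIMP4 holds 1, each with 1 match to AGGAAG. At least 1 match to AGGAAG occurs in 28.7% of all windows and in 5 of the 12 found for tested genes, which also include ADAMTS10, which fell, and ADAM10 and TIMP1, which did not pass, while ADAMTS7 fell and holds none. At least 5 matches to GGGCGG occur in 4.15% of the 35116 windows of the same length over all RefSeq genes, expressed or not, and at least 1 in 42.6%. Among the other tested genes with a window, 5 or more matches to GGGCGG were found for ADAMTS10 with 5 and ADAMTS7 with 7, which fell, and TIMP3 with 5, which did not pass. Whether the matches go with the direction of change was not tested. Windows were found for 38 of the 65 genes and 12 of the 22 tested. None of these 12 holds the AP-1 motif TGAGTCA or TGACTCA (either strand; 4.2% of all windows) and 1, ADAMTS10, holds TATAAA (10.7% of all windows). MMP7, which was not tested, was the 1 of the 38 genes with an AP-1 match. Among the tested MMP genes only MMP15 and MMP24 had a window, so MMP12, MMP13 and MMP17 were not scanned for any motif.

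Of the 6 tested ADAMTS genes, 1 rose, 2 fell and 3 did not pass, where 15.9% of all tested genes rose and 17.6% fell. ADAMTS1, which cuts aggrecan and versican (ENSG00000154734, chromosome 21, 26835755 to 26845409), was at 3.25, 2.94 and 2.81 FPKM in siEIF4G2, against 1.87, 2.19 and 2.03 FPKM in siNC. It was 1.45-fold higher without overlap (log2 fold change 0.54, SE 0.09; edgeR adjusted p = 0.00667). ADAMTS5, an aggrecanase that neighbours ADAMTS1 on chromosome 21, was at 0.863, 0.715 and 0.95 FPKM in siEIF4G2 and at 0.866, 1.01 and 1.02 FPKM in siNC. Its fitted change pointed the other way and did not pass (log2 fold change -0.22, SE 0.13; edgeR adjusted p = 0.232).

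ADAMTS10, linked to fibrillin microfibrils (ENSG00000142303, chromosome 19, 8580240 to 8610735), was at 1.51, 1.34 and 1.46 FPKM in siEIF4G2 and at 2.31, 2.74 and 2.3 FPKM in siNC. It was 1.73-fold lower without overlap (log2 fold change -0.79, SE 0.1; edgeR adjusted p = 0.00274). ADAMTS6, its closest relative, averaged 0.411 ± 0.109 FPKM in siEIF4G2 and 0.521 ± 0.05 FPKM in siNC (SD, n = 3 each; edgeR adjusted p = 0.211). ADAMTS7, which cuts cartilage oligomeric matrix protein (ENSG00000136378, chromosome 15, 78759206 to 78811464), was at 1.06, 0.925 and 0.936 FPKM in siEIF4G2 and at 1.3, 1.31 and 1.35 FPKM in siNC. It was 1.38-fold lower without overlap (log2 fold change -0.47, SE 0.089; edgeR adjusted p = 0.0103), and its interval overlaps MORF4L1 on the opposite strand, at 42.1 FPKM in siEIF4G2 and 44.3 FPKM in siNC. ADAMTS15, which cuts versican, averaged 1.04 ± 0.116 FPKM in siEIF4G2 and 1.29 ± 0.0897 FPKM in siNC, and although the groups did not overlap it did not pass (log2 fold change -0.34; edgeR adjusted p = 0.0669).

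TIMP1 and TIMP2 had the highest mean levels of the 65 genes. TIMP1, secreted and also a growth factor for several cell types, was at 128, 125 and 115 FPKM in siEIF4G2 and at 149, 129 and 129 FPKM in siNC. The groups did not overlap, but the gap was narrow and the test was not passed (log2 fold change -0.17, SE 0.08; edgeR adjusted p = 0.149). TIMP3, the inhibitor that binds to the matrix and blocks ADAM17, was at 16.5, 15.5 and 15.4 FPKM in siEIF4G2 and at 17.5, 17.0 and 16.9 FPKM in siNC. It likewise showed separate groups and a small difference that did not pass (log2 fold change -0.14, SE 0.045; edgeR adjusted p = 0.0567).

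TIMP4 (ENSG00000157150, chromosome 3, 12153068 to 12158912), the inhibitor with the narrowest tissue range, passed. It was at 4.25, 6.02 and 5.4 FPKM in siEIF4G2, against 7.62, 6.94 and 7.78 FPKM in siNC. It was 1.45-fold lower (log2 fold change -0.54, SE 0.15; edgeR adjusted p = 0.0416), and the edgeR adjusted p was 0.0705 to 0.108 on leaving out any library other than siEIF4G2 replicate 2. TIMP1, TIMP3 and TIMP4 each lie inside a synapsin gene, and SYN1, SYN3 and SYN2 were under 0.04 FPKM on average in both groups.

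TIMP2, which inhibits MMPs and also helps MMP14 activate MMP2, varied widely within both groups. It was at 30.0, 36.3 and 87.2 FPKM in siEIF4G2 replicates 1, 2 and 3, against 119, 133 and 54.5 FPKM in siNC replicates 1, 2 and 3. Replicate 3 was the high library of siEIF4G2 and the low library of siNC, so that the groups overlapped, while EIF4G2 was low in all 3 siEIF4G2 libraries. The highest library was 2.9 times the lowest in siEIF4G2 and 2.43 times in siNC, against at most 1.42 times in either group for TIMP1, TIMP3 and TIMP4. TIMP2 did not pass (log2 fold change -1.02, SE 0.5, edgeR adjusted p = 0.169). Without siEIF4G2 replicate 3 its log2 fold change was -1.64 (edgeR adjusted p = 0.044), the only leave-out in which it passed. Without siNC replicate 3 the log2 fold change of TIMP2 was -1.32. On leaving out any library other than siEIF4G2 replicate 3 its edgeR adjusted p was 0.1 to 0.352. The share of TIMP1 in the summed TIMP FPKM ranged from 51.5% to 71.5% in siEIF4G2 and from 45.1% to 62.0% in siNC.

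**Figure D4:**
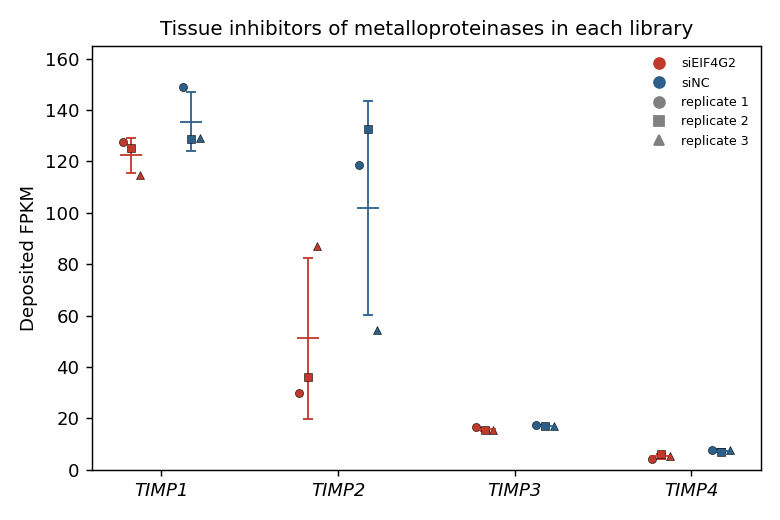
Deposited FPKM of the 4 TIMP genes in each library, siEIF4G2 left of siNC; points are libraries, shaped by replicate number, and bars mean ± SD (n = 3). TIMP2 of siEIF4G2 replicate 3 (87.2 FPKM) lies above that of siNC replicate 3 (54.5 FPKM), while TIMP1 and TIMP3 keep within narrow ranges.

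The remaining 43 genes stayed under the filter, 31 of them with a count in at least 1 library. Those with a group mean over 0.1 FPKM were ADAM8, ADAM12, ADAM21, ADAMTS4, MMP2, MMP7, MMP11, MMP19, MMP21 and MMP28. MMP28, epilysin, was the closest to entering, at 0.275, 0.249 and 0.34 FPKM in siEIF4G2 and at 0.456, 0.753 and 0.541 FPKM in siNC. In a fit with no filter on low values, 15 of the 53 genes with a count passed, 3 higher in siEIF4G2 and 12 lower. Over all 27064 genes of that fit 14.4% passed, 1771 higher and 2138 lower. The 14.4% covers genes over the filter as well, and no share was taken for genes under it alone. Of the 31, 4 passed, all lower in siEIF4G2: MMP28, MMP19, MMP11 and ADAM8. Their log2 fold changes in that fit were -1.02, -1.24, -1.68 and -1.10 (edgeR adjusted p = 0.0382, 0.0382, 0.0271 and 0.0297). The interval of MMP28 overlaps TAF15, whose counts lay between 10985 and 14185 against 65 to 195 for MMP28. That of MMP19 overlaps TMEM198B, with counts of 193 to 627 against 25 to 88 for MMP19. That of MMP21 overlaps EDRF1, with counts of 2515 to 3021 against 6 to 39 for MMP21. ADAM21 averaged 0.109 FPKM in siEIF4G2 and 0.284 FPKM in siNC, and MMP21 0.125 FPKM in siEIF4G2 and 0.0765 FPKM in siNC, and neither passed.

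Genes that act with these proteases were counted in 5 lists, chosen with earlier results of these data known. Their called shares and directions are therefore descriptive only. Over all tested genes, 15.9% were called higher and 17.6% lower. Of 19 tested activators and regulators, 10 fell, 0 rose and 9 did not pass (52.6% called, against the 33.4% of all tested genes), with a median log2 fold change of -0.39. A2M, a plasma inhibitor that traps proteases, averaged 49.1 ± 3.03 FPKM in siEIF4G2 and 99.2 ± 4.22 FPKM in siNC. PLAT, a plasminogen activator, was 1.75-fold lower and LRP1, a receptor that clears MMPs and TIMPs, 1.44-fold lower, and edgeR adjusted p was 0.000263 to 0.00179 for these 3 genes. RHBDF1 and RHBDF2, the inactive rhomboids that carry ADAM17 to the cell surface, were picked after their values were seen. They were 1.95-fold and 1.52-fold lower (edgeR adjusted p = 0.00317 and 0.00615). FRMD8 of the same list had overlapping groups and did not pass (log2 fold change -0.70, SE 0.5, edgeR adjusted p = 0.329).

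Of 27 tested membrane substrates of ADAM sheddases, 9 fell, 4 rose and 14 did not pass. This made 48.1% called, against 33.4% of all tested genes, with a median log2 fold change of -0.11. NECTIN4, an adhesion molecule, was at 0.178 ± 0.0563 FPKM in siEIF4G2 and 1.31 ± 0.0562 FPKM in siNC, while MICA, a ligand of a natural killer cell receptor, and AXL, a receptor kinase, were 1.41-fold and 1.34-fold lower. ALCAM, an adhesion molecule shed by ADAM17, averaged 17.0 ± 1.21 FPKM in siEIF4G2 and 12.9 ± 0.134 FPKM in siNC. The edgeR adjusted p was 0.00081 to 0.00401 for these 4 genes. NECTIN4 reached 0.5 FPKM only in siNC libraries, so its entry into the test depended on the group in which it was high. Of 20 tested matrix substrates, 9 fell, 4 rose and 7 did not pass. This made 65% called, against 33.4% of all tested genes, with a median log2 fold change of -0.23. They were led by LAMB3, a laminin chain, FN1, fibronectin, COL18A1, the precursor of endostatin, and VTN, vitronectin, all lower. The log2 fold changes of these 4 were -0.93, -0.76, -0.58 and -1.84 (edgeR adjusted p at most 0.00185).

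Of 9 tested other metalloproteases and ADAMTS-like genes, 6 fell, 0 rose and 3 did not pass. This made 66.7% called, against 33.4% of all tested genes, with a median log2 fold change of -0.39. ADAMTSL4, which lacks a protease domain and binds fibrillin, averaged 2.14 ± 0.0684 FPKM in siEIF4G2 and 5.05 ± 0.253 FPKM in siNC, 2.4-fold lower. BMP1, the procollagen C-proteinase, ADAMTSL5 and PAPPA, which cuts proteins that bind insulin-like growth factors, were 1.45-fold, 1.69-fold and 1.69-fold lower (edgeR adjusted p = 0.000292 to 0.00287 for these 4 genes). Of 27 tested transcription factors known to act at MMP promoters, 10 fell, 1 rose and 16 did not pass. The share called, 40.7%, was near the 33.4% of all tested genes, and the median log2 fold change was -0.17. NFKB2 and RELB, NF-kB subunits, JUNB, an AP-1 subunit, and ELF3, an ETS factor, were 1.79-fold, 2.56-fold, 1.57-fold and 1.46-fold lower (edgeR adjusted p at most 0.00158).

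**Figure D5:**
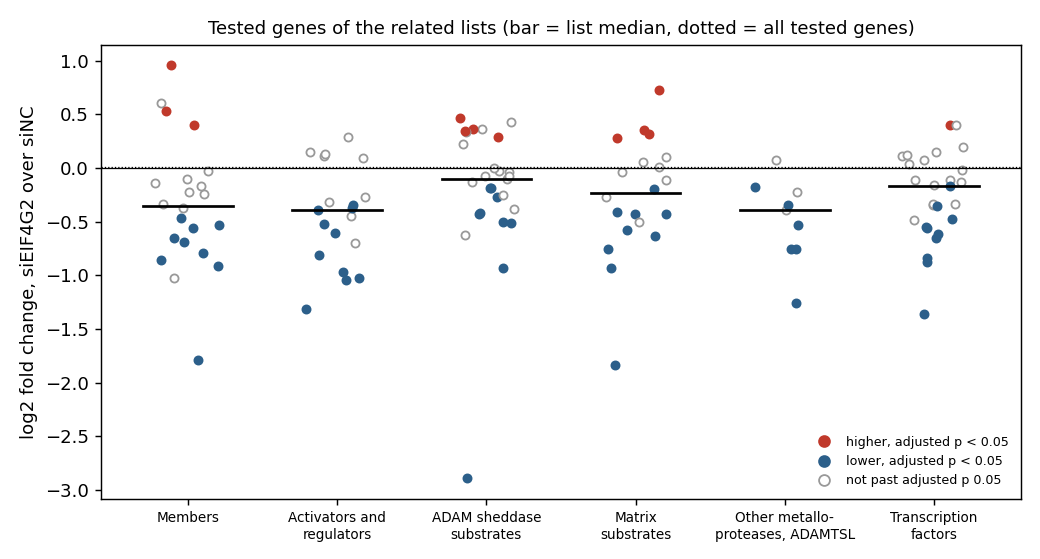
log2 fold change, siEIF4G2 over siNC, of the 22 tested metalloprotease and TIMP genes and of the tested genes of the 5 related lists; each point is a gene, filled where the adjusted p was under 0.05, with horizontal bars at the list medians and a dotted line at the median of all tested genes. The list medians lie between -0.39 and -0.11, and the activators and regulators and the other metalloproteases have no filled point above 0.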

How the data were processed

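Poly(A) RNA of 6 libraries was sequenced as paired ends, per the labels' protocols. HISAT2 2.0 and StringTie 1.3.0 are named, without a role, per the submitters' processing notes, while build, annotation and strand use are not given in the sources. The authors deposited, per gene and library, an estimated count, held as a whole number, and an FPKM value, listed as 0.0001 where the count is 0. Counts of 4 were over-represented (1131 to 1349 genes per library, against 267 to 293 at 5). Gene intervals of all 65 genes overlapped GENCODE release 29, so coordinates are given as GRCh38.

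The estimated counts, already rounded, were tested with edgeR 4.0.16 (R 4.3.3), TMM factors and a quasi-likelihood fit of the group, where 3 or more libraries reached 0.5 FPKM. Rows sharing a symbol were reduced to the highest mean FPKM. Two-sided p-values were adjusted by Benjamini-Hochberg over 13748 genes. The SE is the size of the log2 change divided by the root of the F statistic. The fitting step was tested on simulated data. No library pair within a group agreed within sampling noise. Alternatives were other scalings and filters, DESeq2 1.42.0, limma 3.58.1 on log2(FPKM + 1) or log2(FPKM + 0.1), a replicate block, summed rows and leaving out each library. Every tested gene is named, and the 4 smallest p of each related list, of which 1 gene is not reported here. The genes and lists were chosen with earlier results of these data known. Interval overlaps were examined for the 65 genes only. Intervals for a count of 0 cover counting error only.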

Additional observations from a re-analysis of the deposited data

How the results depend on the processing

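The 12 calls among the 22 tested genes were the same genes with RLE or total-count scaling, with limma at either pseudocount, with summed rows and with a filter on the mean. DESeq2 added ADAMTS15 (adjusted p = 0.041), and a filter of 1 FPKM removed MMP12 from the test. On leaving out each library in turn, 10 to 12 genes passed, and 0 to 1 of the TIMP genes against 1 with all libraries. TIMP4 accounts for most losses, MMP13 for 1, and TIMP2 was gained without siEIF4G2 replicate 3. Over all tested genes, 3352 to 4134 passed in these leave-outs, against 4597 with all libraries. With no filter on low values, 7 MMP genes passed against 4, since more genes entered, and 0 TIMP genes (TIMP4 adjusted p = 0.0776; the cause was not tested). With a replicate block 11 genes passed, 0 of them TIMP genes, and 3736 of all tested genes against 4597. The numbers are not stated to pair libraries, and same-numbered libraries deviated together with r of 0.00114, 0.0317 and 0.0498 across genes, so the block was not used. The sign of ADAM10, near 0, turned without siEIF4G2 replicate 1 (0.00385), siEIF4G2 replicate 2 (7e-06) and siNC replicate 3 (0.00994), and over all leave-outs it ranged from -0.0863 to 0.00994. ADAM15, ADAM9, ADAM17, ADAM33, ADAMTS1, ADAMTS10, ADAMTS7, MMP15 and MMP17 passed in the same direction under all 16 alternatives. A pseudocount of 1 shrinks changes of low genes, so that MMP12 had a log2 difference of -0.66 with it. The 31 genes with counts that stayed under the filter were tested only in the fit without it.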
